A study of Sus scrofa with 4 samples.

Results

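The genes described here are 48 members of the transforming growth factor β (TGF-β) superfamily network in porcine cells undergoing reprogramming. They comprise the ligands, the proteins that store or process them, the receptors and coreceptors, the intracellular SMAD proteins with their corepressors, and the secreted antagonists. The genes were chosen by symbol from a list of the family, with earlier results of these data known. All 48 were found by Ensembl identifier among the 25880 genes of the count table. RNA sequencing had been carried out on 2 clones of porcine induced pluripotent stem cells (iPSCs, passage 3), on 1 culture of neural stem cell-like cells induced from fibroblasts (iNSLCs, passage 1) and on 1 fibroblast culture (passage 1). All cultures came from 1 line of ear skin fibroblasts from a post-neonatal pig. The iNSLCs were dome-shaped colonies that had formed after transfection with episomal vectors, which carried human LIN28, L-MYC, KLF4, SOX2 and OCT4, the factors KLF2, NANOG, GLIS1 and KDM4D, EGFP and the dominant-negative mouse p53 fragment mp53DD, in a medium devised for naive-state cells. The iPSC clones were isolated as colonies after such cells had been passaged and moved to embryonic stem cell medium to which TGF-β1, activin A and IWP2, an inhibitor of WNT secretion, had been added. The iPSC cultures thus received exogenous ligands of the network measured here, and medium, passage and cell type changed together and cannot be told apart.

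Ligands of the superfamily are secreted dimers that bring together type I and type II receptor kinases at the cell surface. TGF-βs, activins and NODAL lead to phosphorylation of SMAD2 and SMAD3, bone morphogenetic proteins (BMPs) and several growth and differentiation factors (GDFs) to phosphorylation of SMAD1 and SMAD5, and both branches share SMAD4. In skin fibroblasts TGF-β is best known as an inducer of matrix genes, and in primed pluripotent cells activin and NODAL are known to sustain the undifferentiated state. Outside the cell, latent TGF-β binding proteins hold TGF-β in the matrix, and antagonists such as follistatin and noggin trap activins and BMPs.

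Total counts ranged from 21640374 in iPSC clone 1 to 62421521 in fibroblasts. Levels are given as CPM, counts scaled to library size with the trimmed mean of M-values (TMM), and 3 counts, the limit that a count of 0 allows, corresponded to 0.0648 to 0.127 CPM. The labels were checked against marker genes. All 7 pluripotency markers were higher in iPSCs than in fibroblasts and 6 were higher than in iNSLCs. Their summed levels were 1126 and 1115 CPM in the iPSC clones, 439 CPM in iNSLCs and 0.972 CPM in fibroblasts. Among these markers, POU5F1 (OCT4), SOX2, NANOG and LIN28A were also carried by the vectors. The paper reports vector loss in porcine iPSCs at a later passage than that sequenced. Reads from vector copies were not separated from those of the porcine genes. The sums in iPSCs and iNSLCs therefore cannot be read as endogenous expression alone. All 10 fibroblast markers were lower in iPSCs than in fibroblasts and 9 were lower than in iNSLCs, and their summed level was 1635 and 1650 CPM in iPSC clones, 53723 CPM in iNSLCs and 151537 CPM in fibroblasts. Of 8 neural stem cell markers, FABP7 and MSI1 were highest in iNSLCs, SOX1 was under 3 CPM there, and 5 of the 8 were lower and 1 was higher in iPSCs than in iNSLCs, against 4 higher and 1 lower when iPSCs were set against fibroblasts. The iNSLC library therefore carried fibroblast marker RNA, including COL1A1 and COL3A1, beside neural marker RNA, and in bulk RNA fewer cells of a type and less RNA per cell cannot be told apart. The spread behind each p-value was that between iPSC clones of 1 animal, and the lone iNSLC and fibroblast libraries were assumed to vary like the clones.

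Of the 48 genes, 43 reached 10 CPM in at least 1 library and 46 entered the test. INHA, the inhibin α subunit, and GDF5, a cartilage and joint ligand, had no more than 3 counts in any library and were not tested. Against fibroblasts, 13 of the 46 genes were higher in iPSCs (28.3%, against 29.6% of all 15739 genes tested) and 20 were lower (43.5%, against 28.2% of all genes; edgeR quasi-likelihood test, adjusted p below 0.05). Against iNSLCs, 14 genes were higher in iPSCs (30.4%, against 13.2% of all genes) and 9 were lower (19.6%, against 14.2% of all genes). The share of higher genes thus lay near the background in the first comparison and above it in the second, and that of lower genes lay above it in both. Because the members were chosen with earlier results of these data known, these shares describe the list and are not a test of it. The split against fibroblasts depended on the scaling. TMM lowered every ratio of iPSCs to fibroblasts by 0.57 on the log2 scale relative to total counts. The shift applied to all genes, and the share of all genes called with total counts was not computed. With total counts 19 of the 46 genes were higher and 15 lower. The genes then added were LTBP4, ACVR1C, BMPR1A, SMAD2, SMAD4 and CHRD, all higher, and those lost were ACVR1, SMAD3, SMAD5, SKI and NOG. The median log2 ratio of the 46 genes was -0.21 for iPSCs against fibroblasts and 0.13 for iPSCs against iNSLCs, beside 0.13 and -0.00 over all genes tested.

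**Figure D1:**
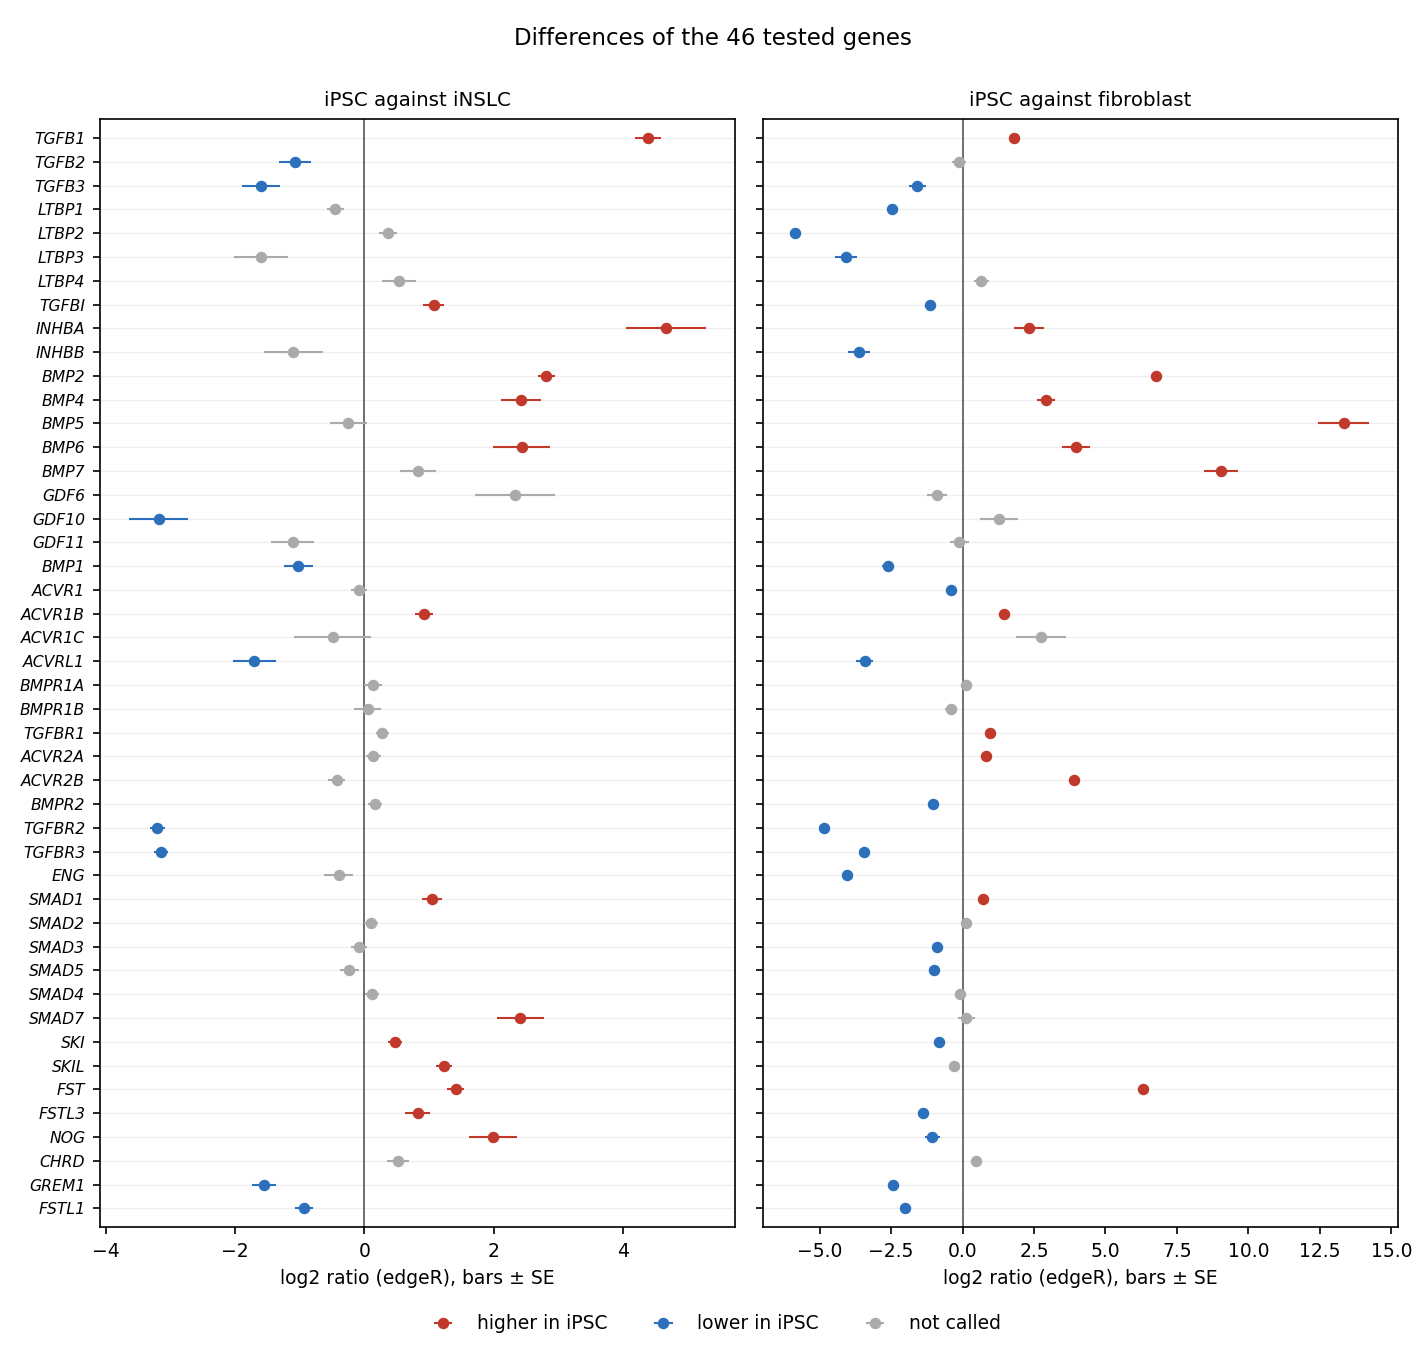
Log2 ratios of the 46 tested genes for iPSCs against iNSLCs (left) and iPSCs against fibroblasts (right), with bars showing the standard error from edgeR; red points were higher and blue points lower in iPSCs at an adjusted p below 0.05. In the left panel 14 genes are red and 9 blue, and in the right panel 13 are red and 20 blue. The position of BMP5 in the right panel rests on 0 fibroblast counts and is not an estimate of its fold change.

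The 3 TGF-β ligand genes moved in different directions. TGFB1 (chromosome 6, 49330418 to 49348198 on Sscrofa11.1) lay at 52.5 and 49.9 CPM in the iPSC clones, 2.44 CPM in iNSLCs and 14.6 CPM in fibroblasts. The clones were alike and above both other libraries, and iNSLCs were the lowest. TGFB1 was 3.51-fold higher in iPSCs than in fibroblasts (log2 ratio 1.81 ± 0.16 SE, edgeR adjusted p = 0.00174) and 21.0-fold higher than in iNSLCs (4.39 ± 0.20 SE, edgeR adjusted p = 0.00287). TGFB2 (chromosome 10, 8305539 to 8405771), which encodes the isoform best known from development, showed the reverse order for iNSLCs, with 43.7 and 63.7 CPM in iPSC clones, 113 CPM in iNSLCs and 58.8 CPM in fibroblasts. It was 2.11-fold lower in iPSCs than in iNSLCs (edgeR adjusted p = 0.0430, but 0.0768 without the low-count filter), while the fibroblast value lay between those of the clones. TGFB3 lay at 4.69 and 7.12 CPM in iPSC clones, 18.3 CPM in iNSLCs and 18.2 CPM in fibroblasts, and was 3.10-fold lower in iPSCs than in iNSLCs (edgeR adjusted p = 0.0276, but 0.0504 without the low-count filter) and 3.08-fold lower than in fibroblasts (edgeR adjusted p = 0.0119).

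Expressed per kilobase of counted exon, which allows levels of different genes to be compared within a library, TGFB2 was the most abundant of the 3 ligands in every library. It made up 53.3% and 62.5% of their summed CPM per kilobase in the iPSC clones, 88.9% in iNSLCs and 72.6% in fibroblasts. TGFB1 made up 42.8% and 32.7% in the iPSC clones, 1.28% in iNSLCs and 12.1% in fibroblasts. These shares do not depend on the scaling between libraries. In iPSC clone 1 TGFB1 had the higher CPM, so the order there rests on the counted exon lengths, 4983 bases for TGFB1 and 3335 bases for TGFB2.

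The latent TGF-β binding proteins, which anchor latent TGF-β in the matrix, were mostly lower outside fibroblasts. LTBP2 (chromosome 7, 97746110 to 97852479), a relative that sits in elastic microfibrils and does not itself bind latent TGF-β, had 10.2 and 11.2 CPM in iPSC clones, 8.31 CPM in iNSLCs and 621 CPM in fibroblasts. It was 58.1-fold lower in iPSCs than in fibroblasts (log2 ratio -5.85 ± 0.12 SE, edgeR adjusted p = 0.000358), and 74.7-fold lower in iNSLCs than in fibroblasts (95% counting interval 65.8 to 85.3). LTBP1 lay at 117 and 134 CPM in iPSC clones, 172 CPM in iNSLCs and 699 CPM in fibroblasts, and was 5.55-fold lower in iPSCs than in fibroblasts (edgeR adjusted p = 0.000657). LTBP3 lay at 5.45 and 2.69 CPM in iPSC clones, 11.7 CPM in iNSLCs and 65.8 CPM in fibroblasts. It was 16.2-fold lower in iPSCs than in fibroblasts (edgeR adjusted p = 0.00212), or 24.5-fold without clone 1 and 12.1-fold without clone 2. LTBP4 differed from this order, with 40.2 and 57.5 CPM in iPSC clones, 33.8 CPM in iNSLCs and 31.1 CPM in fibroblasts, and passed neither test with TMM scaling. With TMM scaling edgeR called none of the LTBP genes between iPSCs and iNSLCs, whereas LTBP3 was lower in iPSCs with total counts (edgeR adjusted p = 0.0425) and by DESeq2 (adjusted p = 0.00742). TGFBI, a matrix protein induced by TGF-β, lay at 36.9 and 43.0 CPM in iPSC clones, 19.0 CPM in iNSLCs and 88.7 CPM in fibroblasts, so that it was 2.22-fold lower in iPSCs than in fibroblasts (edgeR adjusted p = 0.00467) and 2.10-fold higher than in iNSLCs (edgeR adjusted p = 0.0193). BMP1, the proteinase that processes procollagens and releases ligands from LTBP1 and chordin, had 51.1 and 36.7 CPM in iPSC clones, 88.8 CPM in iNSLCs and 266 CPM in fibroblasts, and fell in iPSCs against both, 6.07-fold against fibroblasts (edgeR adjusted p = 0.00160) and 2.02-fold against iNSLCs (edgeR adjusted p = 0.0378, but 0.0794 without the low-count filter).

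The activin subunit genes INHBA and INHBB, whose products dimerise to activin A and activin B, ran in opposite directions. INHBA (chromosome 18, 52884631 to 52905213 in the count table, but on another chromosome in the RefSeq table) had 247 and 117 CPM in iPSC clones 1 and 2, 7.12 CPM in iNSLCs and 35.9 CPM in fibroblasts. Both clones lay above the other libraries, although they differed 2.11-fold from each other, and iNSLCs were again the lowest. INHBA was 5.07-fold higher in iPSCs than in fibroblasts (log2 ratio 2.34 ± 0.52 SE, edgeR adjusted p = 0.0213, but 0.0536 without the low-count filter) and 25.6-fold higher than in iNSLCs (4.67 ± 0.62 SE, edgeR adjusted p = 0.0148). Without clone 1 these ratios were 3.26-fold and 16.5-fold. INHBB had 2.70 and 1.40 CPM in iPSC clones, 4.12 CPM in iNSLCs and 23.8 CPM in fibroblasts, and was 11.6-fold lower in iPSCs than in fibroblasts (edgeR adjusted p = 0.00267). Per kilobase, INHBA exceeded INHBB 71.0-fold and 65.0-fold in the iPSC clones, 1.34-fold in iNSLCs and 1.17-fold in fibroblasts.

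Of the 8 tested BMP and GDF ligand genes among the members, 5 were higher in iPSCs than in fibroblasts and none was lower, beside 29.6% higher and 28.2% lower of all genes tested. The 5 were BMP2, BMP4, BMP5, BMP6 and BMP7. This direction did not hold for all such ligands outside the member list. GDF9 and GDF15 were lower than in fibroblasts (2.46-fold and 9.98-fold, edgeR adjusted p = 0.0172 and 0.00443), whereas GDF3, BMP3 and BMP10 were higher. BMP2 (chromosome 17, 15749836 to 15761194) lay at 116 and 117 CPM in iPSC clones, 16.5 CPM in iNSLCs and 1.06 CPM in fibroblasts. Its levels stood in steps, with the clones together at the top. BMP2 was 110-fold higher in iPSCs than in fibroblasts (log2 ratio 6.78 ± 0.18 SE, edgeR adjusted p = 0.000396) and 7.05-fold higher than in iNSLCs (2.82 ± 0.14 SE, edgeR adjusted p = 0.00312), and 15.6-fold higher in iNSLCs than in fibroblasts (95% counting interval 11.6 to 21.4). BMP4 lay at 62.9 and 92.0 CPM in iPSC clones, 14.4 CPM in iNSLCs and 10.2 CPM in fibroblasts, which was 7.58-fold higher in iPSCs than in fibroblasts (edgeR adjusted p = 0.00292) and 5.36-fold higher than in iNSLCs (edgeR adjusted p = 0.0131). BMP4 thus differed little between iNSLCs and fibroblasts, with a ratio of 1.41 (95% counting interval 1.24 to 1.62).

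BMP5 and BMP7, in contrast, were already high in iNSLCs. BMP5 (chromosome 7, 25344729 to 25469988) had 28.4 and 42.7 CPM in iPSC clones and 42.4 CPM in iNSLCs, and 0 counts in fibroblasts, which allows up to 0.0648 CPM. It was at least 548-fold higher in iPSCs (edgeR adjusted p = 0.00103) and at least 655-fold higher in iNSLCs than in fibroblasts at the floor of 3 counts, and the lower 95% counting limits were 474 and 532. BMP7 (chromosome 17, 57584952 to 57676359) had 20.6 and 28.3 CPM in iPSC clones, 13.8 CPM in iNSLCs and 2 counts in fibroblasts. The pooled iPSC counts gave a ratio to fibroblasts of 595 (95% counting interval 165 to 4918, edgeR adjusted p = 0.000981) and the iNSLC count a ratio of 320 (95% counting interval 88.0 to 2651). Neither gene passed the test between iPSCs and iNSLCs, where the log2 ratio was -0.25 ± 0.28 SE for BMP5 and 0.83 ± 0.27 SE for BMP7. BMP6 was weak, at 3.67 and 3.87 CPM in iPSC clones, 0.698 CPM in iNSLCs and 0.238 CPM in fibroblasts, and higher in iPSCs than in fibroblasts (edgeR adjusted p = 0.00429) and iNSLCs (edgeR adjusted p = 0.0275, but 0.0505 by DESeq2). Of its exon bases, 25.3% are shared with TXNDC5.

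Among the GDF genes, GDF10, also called BMP3B, was high in iNSLCs and low in the other libraries. It had 1.01 and 2.62 CPM in iPSC clones, 18.1 CPM in iNSLCs and 0.821 CPM in fibroblasts. GDF10 was 9.94-fold lower in iPSCs than in iNSLCs (log2 ratio -3.19 ± 0.46 SE, edgeR adjusted p = 0.0171), or 6.89-fold without clone 1 and 17.8-fold without clone 2. It was 22.0-fold higher in iNSLCs than in fibroblasts (95% counting interval 15.8 to 31.5). GDF11, which encodes a myostatin-like ligand, lay at 12.9 and 8.0 CPM in iPSC clones, 22.1 CPM in iNSLCs and 11.1 CPM in fibroblasts and passed neither test, and 53.4% of its exon bases are shared with SARNP. GDF6, a ligand known from joints and the eye, did not reach 10 CPM in any library and passed neither test.

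**Figure D2:**
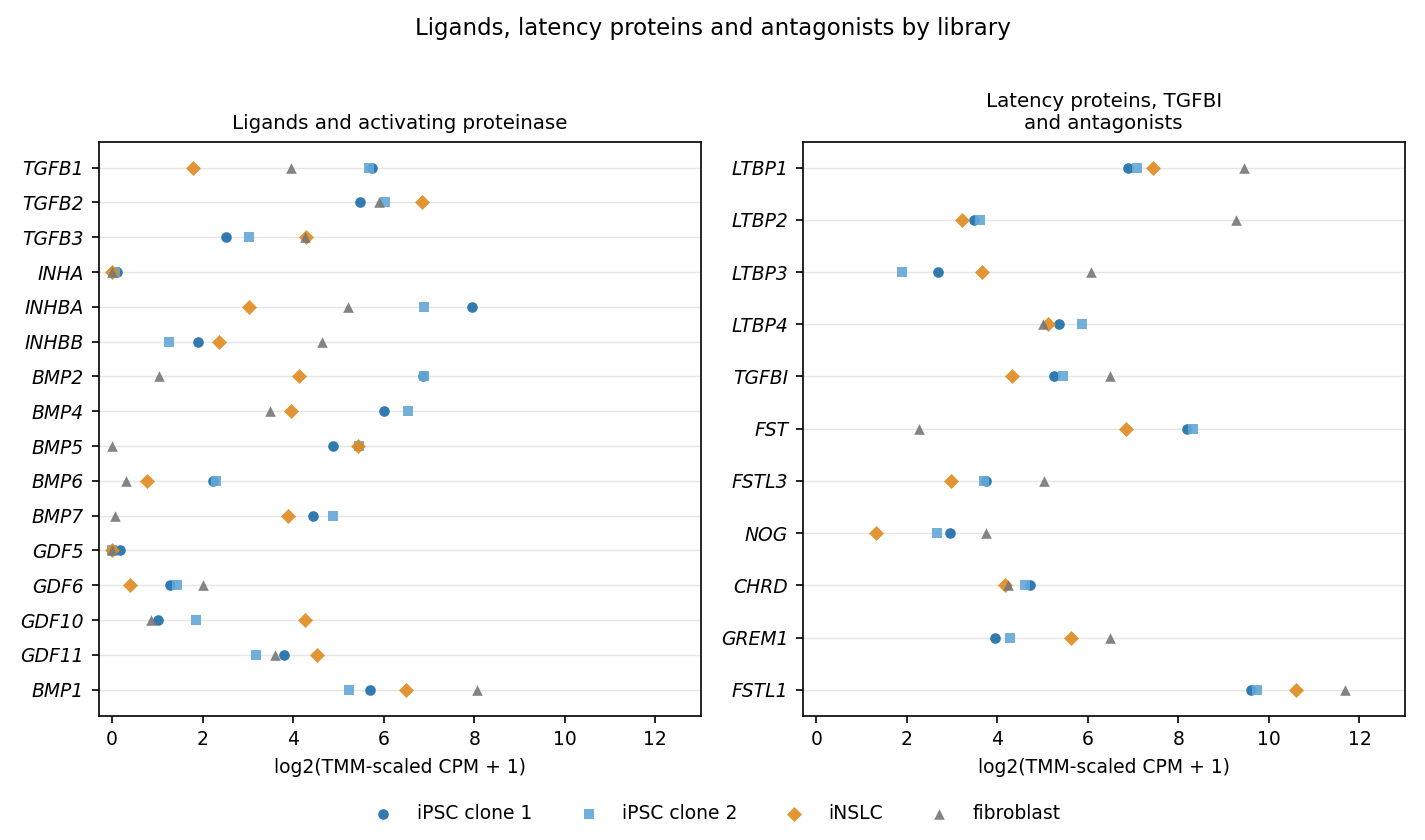
Levels of the ligands and BMP1 (left) and of the latency proteins, TGFBI and the antagonists (right) as log2(TMM-scaled CPM + 1), with 1 point for each library. TGFB1 and INHBA are lowest in iNSLCs, BMP2, BMP4 and FST are highest in the iPSC clones, and LTBP1 to LTBP3 are highest in fibroblasts.

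Type II receptors bind ligand and activate the type I receptors. Among the genes of both types, TGFBR2 and ACVR2B differed most between iPSCs and fibroblasts. TGFBR2 (chromosome 13, 16784365 to 16876656), the TGF-β type II receptor, lay at 13.1 and 12.3 CPM in iPSC clones, 117 CPM in iNSLCs and 369 CPM in fibroblasts. The clones lay together and far below the other libraries. TGFBR2 was 29.1-fold lower in iPSCs than in fibroblasts (log2 ratio -4.86 ± 0.12 SE, edgeR adjusted p = 0.000358) and 9.2-fold lower than in iNSLCs (-3.20 ± 0.11 SE, edgeR adjusted p = 0.00227). ACVR2B (chromosome 13, 23237464 to 23267373), an activin type II receptor, ran the other way, with 46.9 and 51.6 CPM in iPSC clones, 66.4 CPM in iNSLCs and 3.28 CPM in fibroblasts. It was 15.0-fold higher in iPSCs than in fibroblasts (log2 ratio 3.91 ± 0.18 SE, edgeR adjusted p = 0.000560), 20.2-fold higher in iNSLCs than in fibroblasts (95% counting interval 17.2 to 24.0), and did not pass the test between iPSCs and iNSLCs. ACVR2A, the other activin type II receptor, lay at 60.7 and 62.0 CPM in iPSC clones, 55.7 CPM in iNSLCs and 35.0 CPM in fibroblasts and was 1.75-fold higher in iPSCs than in fibroblasts (edgeR adjusted p = 0.00744), and 37.7% of its exon bases are shared with ORC4. BMPR2, the BMP type II receptor, lay at 151 and 145 CPM in iPSC clones, 132 CPM in iNSLCs and 300 CPM in fibroblasts and was 2.03-fold lower in iPSCs than in fibroblasts (edgeR adjusted p = 0.00256).

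Within each library the makeup of the type II receptor RNA therefore differed. Of the summed CPM per kilobase of the 4 genes, TGFBR2 held 6.52% and 5.96% in the iPSC clones, 36.4% in iNSLCs and 68.8% in fibroblasts. The activin receptors ACVR2A and ACVR2B held 25.6% and 34.7% in iPSC clone 1, 25.6% and 37.3% in iPSC clone 2, 14.7% and 30.8% in iNSLCs, and 5.56% and 0.907% in fibroblasts. Per kilobase ACVR2B exceeded TGFBR2 5.32-fold and 6.26-fold in the iPSC clones, whereas TGFBR2 exceeded ACVR2B 1.18-fold in iNSLCs and 75.6-fold in fibroblasts.

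**Figure D3:**
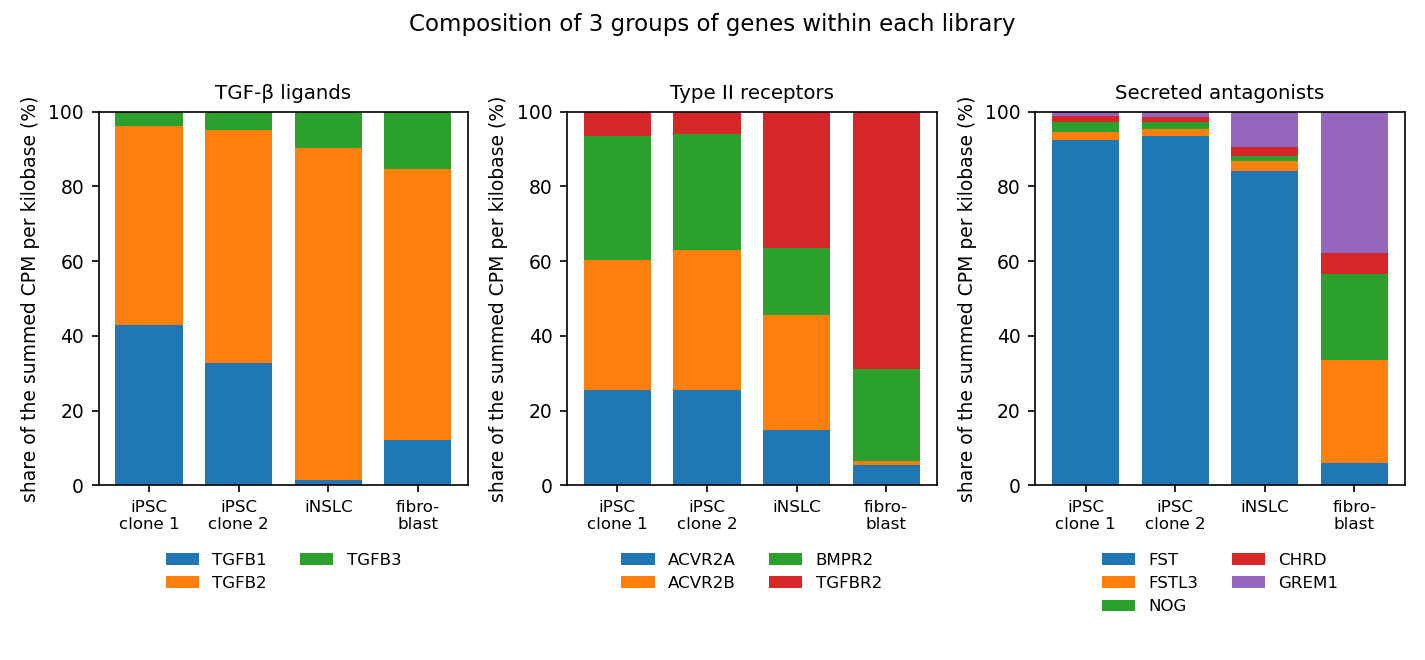
Share of each gene in the summed CPM per kilobase of the TGF-β ligands, the type II receptors and the secreted antagonists, with 1 stacked bar for each library. TGFBR2 holds no more than 6.52% of the type II receptor bar in the iPSC clones and 68.8% in fibroblasts, and FST holds 92.5% and 93.5% of the antagonist bar in the iPSC clones, 84.0% in iNSLCs and 6.07% in fibroblasts.

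Of the type I receptors, the kinases that phosphorylate SMADs, ACVRL1 differed most between iPSCs and fibroblasts. TGFBR1, the partner of TGFBR2, lay at 301 and 307 CPM in iPSC clones, 250 CPM in iNSLCs and 157 CPM in fibroblasts and was 1.94-fold higher in iPSCs than in fibroblasts (edgeR adjusted p = 0.00346), opposite in direction to TGFBR2. Per kilobase TGFBR1 exceeded TGFBR2 19.1-fold and 20.8-fold in the iPSC clones and 1.78-fold in iNSLCs, whereas TGFBR2 exceeded TGFBR1 2.82-fold in fibroblasts. ACVR1B (ALK4), the activin and NODAL type I receptor, lay at 47.3 and 50.1 CPM in iPSC clones, 25.6 CPM in iNSLCs and 18.0 CPM in fibroblasts, and was 2.70-fold higher in iPSCs than in fibroblasts (edgeR adjusted p = 0.00263) and 1.90-fold higher than in iNSLCs (edgeR adjusted p = 0.0195). Its gene neighbour ACVRL1 (ALK1; chromosome 5, 17263907 to 17285874), which binds BMP9 and BMP10 and is known from endothelium, lay at 2.87 and 1.88 CPM in iPSC clones, 7.43 CPM in iNSLCs and 24.6 CPM in fibroblasts, and was 10.4-fold lower in iPSCs than in fibroblasts (edgeR adjusted p = 0.00170) and 3.13-fold lower than in iNSLCs (edgeR adjusted p = 0.0303, but 0.0556 without the low-count filter). The BMP type I receptor BMPR1A was nearly level, with 111 and 128 CPM in iPSC clones, 109 CPM in iNSLCs and 111 CPM in fibroblasts, and it and BMPR1B passed neither test. ACVR1 (ALK2) was called lower in iPSCs than in fibroblasts (1.32-fold, edgeR adjusted p = 0.0458), but with total counts its log2 ratio was 0.17. ACVR1C was under 1 CPM in every library.

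Both coreceptors were lower in iPSCs than in fibroblasts. TGFBR3 (betaglycan; chromosome 4, 125109966 to 125310783), which presents TGF-β2 to the receptor complex and binds inhibin, lay at 14.5 and 14.8 CPM in iPSC clones, 130 CPM in iNSLCs and 159 CPM in fibroblasts. It was 10.9-fold lower in iPSCs than in fibroblasts (log2 ratio -3.45 ± 0.11 SE, edgeR adjusted p = 0.000402) and 8.87-fold lower than in iNSLCs (-3.15 ± 0.11 SE, edgeR adjusted p = 0.00227). ENG (endoglin; chromosome 1, 268306120 to 268343936), a coreceptor known from endothelium, took the other course, with 7.85 and 10.6 CPM in iPSC clones, 12.3 CPM in iNSLCs and 152 CPM in fibroblasts. The fibroblast library alone was high. ENG was 16.5-fold lower in iPSCs than in fibroblasts (log2 ratio -4.03 ± 0.20 SE, edgeR adjusted p = 0.000632), 12.4-fold lower in iNSLCs than in fibroblasts (95% counting interval 11.1 to 13.8), and not called between iPSCs and iNSLCs. The 5 endothelial markers measured did not share this order: PECAM1 was lower in iPSCs than in fibroblasts, while CDH5, TEK, ESAM and TIE1 were higher, 1 was higher and 2 were lower than in iNSLCs, and their summed level was 24.9 and 35.1 CPM in the iPSC clones, 39.4 CPM in iNSLCs and 19.9 CPM in fibroblasts.

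**Figure D4:**
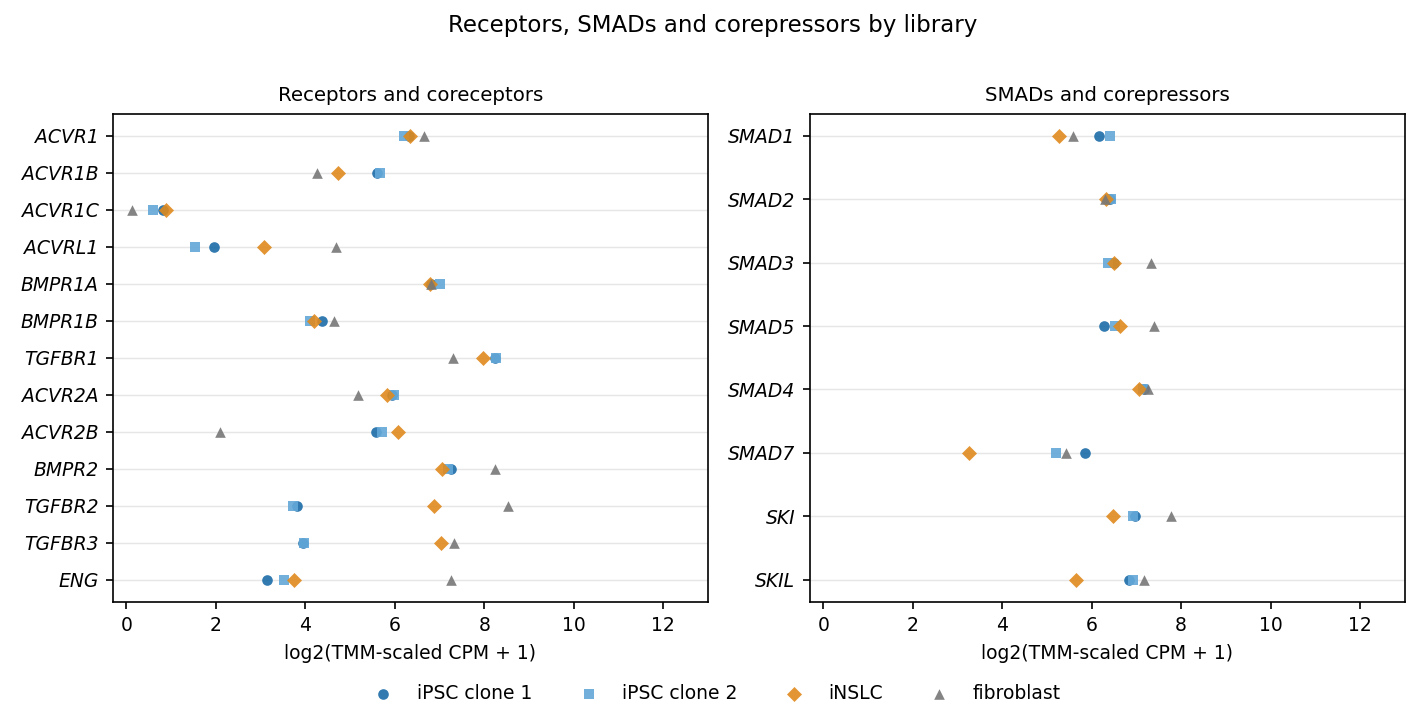
Levels of receptors and coreceptors (left) and of SMADs and corepressors (right) as log2(TMM-scaled CPM + 1), with 1 point for each library. TGFBR2 and TGFBR3 are low in the iPSC clones, ACVR2B is low in fibroblasts, SMAD7 is low in iNSLCs, and SMAD2 and SMAD4 lie nearly at the same level in the 4 libraries.

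Of the SMADs that carry the signal, SMAD2 and SMAD4 lay within narrow ranges. SMAD1, SMAD3 and SMAD5 were each called between iPSCs and fibroblasts with TMM scaling. SMAD9, listed here with the other SMAD regulators, differed far more. It was 17.8-fold lower in iPSCs than in fibroblasts (edgeR adjusted p = 0.000708) and 2.24-fold lower than in iNSLCs (edgeR adjusted p = 0.0354). SMAD4, the common SMAD, lay at 144 and 142 CPM in iPSC clones, 131 CPM in iNSLCs and 151 CPM in fibroblasts. SMAD2 was as level, at 84.3 and 85.5 CPM in iPSC clones, 79.3 CPM in iNSLCs and 78.2 CPM in fibroblasts, and neither gene was called in either comparison with TMM scaling. SMAD3 was lower in iPSCs than in fibroblasts, at 89.1 and 81.1 CPM in iPSC clones against 159 CPM in fibroblasts (1.87-fold, edgeR adjusted p = 0.00486), with 89.8 CPM in iNSLCs. SMAD1, a BMP SMAD, was higher in iPSCs than in both other cell types, at 71.3 and 83.5 CPM in iPSC clones, 37.6 CPM in iNSLCs and 46.8 CPM in fibroblasts, by 2.06-fold against iNSLCs (edgeR adjusted p = 0.0188) and 1.65-fold against fibroblasts (edgeR adjusted p = 0.0186). SMAD5, which serves the same branch, lay at 77.0 and 90.9 CPM in iPSC clones, 98.9 CPM in iNSLCs and 167 CPM in fibroblasts and was 1.99-fold lower in iPSCs than in fibroblasts (edgeR adjusted p = 0.00624). With total counts SMAD3 and SMAD5 were no longer called against fibroblasts, at log2 ratios of -0.33 (edgeR adjusted p = 0.0672) and -0.42 (edgeR adjusted p = 0.0614).

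The intracellular inhibitors were lowest in iNSLCs. SMAD7 (chromosome 1, 98510229 to 98542315), which blocks type I receptors and is itself induced by TGF-β, lay at 56.7 and 35.8 CPM in iPSC clones, 8.62 CPM in iNSLCs and 42.0 CPM in fibroblasts. The fibroblast level lay between the clones, and iNSLCs stood apart below all 3. SMAD7 was 5.37-fold higher in iPSCs than in iNSLCs (log2 ratio 2.42 ± 0.37 SE, edgeR adjusted p = 0.0186) and 4.88-fold lower in iNSLCs than in fibroblasts (95% counting interval 4.27 to 5.59). SKIL (SnoN), a corepressor of SMAD complexes that is also a TGF-β target, lay at 113 and 121 CPM in iPSC clones, 49.5 CPM in iNSLCs and 144 CPM in fibroblasts and was 2.36-fold higher in iPSCs than in iNSLCs (edgeR adjusted p = 0.00838). SKI, its relative, had 124 and 120 CPM in iPSC clones, 87.8 CPM in iNSLCs and 218 CPM in fibroblasts. It was 1.39-fold higher in iPSCs than in iNSLCs (edgeR adjusted p = 0.0437, but 0.0620 by DESeq2 and 0.0706 without the low-count filter) and 1.79-fold lower than in fibroblasts (edgeR adjusted p = 0.00417, but 0.0888 with total counts).

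Among the secreted antagonists, FST (follistatin; chromosome 16, 32806341 to 32811382), which binds activins nearly irreversibly and also some BMPs, differed most. It lay at 289 and 319 CPM in iPSC clones, 114 CPM in iNSLCs and 3.82 CPM in fibroblasts. FST was 79.6-fold higher in iPSCs than in fibroblasts (log2 ratio 6.31 ± 0.17 SE, edgeR adjusted p = 0.000396) and 2.66-fold higher than in iNSLCs (1.41 ± 0.13 SE, edgeR adjusted p = 0.00716), and 29.9-fold higher in iNSLCs than in fibroblasts (95% counting interval 25.7 to 35.0). Per kilobase FST exceeded INHBA 7.37-fold and 17.1-fold in the iPSC clones and 101-fold in iNSLCs, whereas INHBA exceeded FST 1.49-fold in fibroblasts. The counted exons of FST span 1037 bases and those of INHBA 6522 bases, so that these ratios rest on gene models of very unequal length. FSTL3, a second activin-binding follistatin relative, ran against FST, with 12.5 and 12.0 CPM in iPSC clones, 6.91 CPM in iNSLCs and 31.6 CPM in fibroblasts, and was 2.58-fold lower in iPSCs than in fibroblasts (edgeR adjusted p = 0.00422). It was 1.77-fold higher in iPSCs than in iNSLCs (edgeR adjusted p = 0.0480), which was lost under 4 alternatives (adjusted p 0.0508 to 0.107, the highest by DESeq2).

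Against fibroblasts, the BMP antagonists NOG and GREM1 ran opposite to BMP2 and BMP4 in iPSCs, whereas against iNSLCs NOG ran with them. NOG (noggin) lay at 6.76 and 5.35 CPM in iPSC clones, 1.5 CPM in iNSLCs and 12.5 CPM in fibroblasts. It was 4.03-fold higher in iPSCs than in iNSLCs (log2 ratio 1.99 ± 0.37 SE, edgeR adjusted p = 0.0282, but 0.0503 without the low-count filter) and 2.06-fold lower than in fibroblasts (edgeR adjusted p = 0.0270, but 0.112 by DESeq2 and 0.171 with total counts). GREM1 (gremlin; chromosome 1, 136617105 to 136629292), an antagonist of BMP2 and BMP4, lay at 14.4 and 18.4 CPM in iPSC clones, 48.3 CPM in iNSLCs and 89.1 CPM in fibroblasts and was 5.44-fold lower in iPSCs than in fibroblasts (edgeR adjusted p = 0.00126) and 2.95-fold lower than in iNSLCs (edgeR adjusted p = 0.0118). Per kilobase BMP4 exceeded GREM1 3.20-fold and 3.67-fold in the iPSC clones, whereas GREM1 exceeded BMP4 4.57-fold in iNSLCs and 11.9-fold in fibroblasts. CHRD (chordin) lay at 25.5 and 23.4 CPM in iPSC clones, 17.0 CPM in iNSLCs and 17.7 CPM in fibroblasts and passed neither test. FSTL1, an abundant secreted glycoprotein of mesenchymal cells, lay at 772 and 853 CPM in iPSC clones, 1554 CPM in iNSLCs and 3268 CPM in fibroblasts and was 4.02-fold lower in iPSCs than in fibroblasts (edgeR adjusted p = 0.00106) and 1.91-fold lower than in iNSLCs (edgeR adjusted p = 0.0180).

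Over the family, 16 of the 46 tested genes had their lowest level in iNSLCs (34.8%, against 26.5% of all genes tested) and 23 their highest level in fibroblasts (50%, against 37.9% of all genes). With total counts these numbers were 11 (23.9%, against 16.8%) and 18 (39.1%, against 21.8%). The genes higher in iPSCs than in iNSLCs but lower than in fibroblasts were TGFBI, SKI, FSTL3 and NOG, 8.70% of the 46 genes beside 2.16% of all genes tested. The calls of SKI, FSTL3 and NOG against iNSLCs were lost without the low-count filter, and those of SKI and NOG against fibroblasts with total counts. TGFB1, INHBA, BMP2, BMP4, BMP6, ACVR1B, SMAD1 and FST were higher in iPSCs than in both, and TGFB3, BMP1, ACVRL1, TGFBR2, TGFBR3, GREM1 and FSTL1 were lower than in both. These 2 sets were 17.4% and 15.2% of the 46 genes, beside 8.04% and 8.15% of all genes tested. No gene was higher than in fibroblasts and lower than in iNSLCs, a pattern of 2.26% of all genes tested. The comparisons share the iPSC libraries, so the joint counts are not independent of each other.

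Between iNSLCs and fibroblasts, which had 1 library each and for which no p-value was computed, 43 genes reached 10 CPM in either library. Of these, 6 were at least 4-fold higher in iNSLCs (14.0%, against 9.2% of 10079 genes) and 11 at least 4-fold lower (25.6%, against 8.88%). The higher genes were BMP2, BMP5, BMP7, GDF10, ACVR2B and FST. The lower ones were TGFB1, LTBP1, LTBP2, LTBP3, TGFBI, INHBA, INHBB, ENG, SMAD7, FSTL3 and NOG, and with total counts, which raised every such ratio by 0.58 on the log2 scale, LTBP2 and ENG were the 2 that still met the fold at 10 CPM or more. The fibroblast marker sum moved in the same direction as the lower genes, and its part in them was not tested. The clones differed at least 2-fold in 1 of 37 genes at 10 CPM or more (2.70%, against 1.5% of 9250 genes), which was INHBA, with a ratio of clone 2 to clone 1 of 0.474 (95% counting interval 0.457 to 0.492).

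Further genes of the pathway were taken from lists, also chosen with earlier results of these data known. Their counts stand beside 29.6% higher and 28.2% lower of all genes tested against fibroblasts, and 13.2% higher and 14.2% lower against iNSLCs. Of 10 tested other ligands of the superfamily, 5 were higher in iPSCs than in fibroblasts and 2 were lower, and 4 were higher and 2 lower than in iNSLCs (median log2 ratios 2.81 and 1.12). NODAL, the ligand that signals through ACVR1B and ACVR2 receptors with a coreceptor, lay at 37.0 and 21.6 CPM in iPSC clones, 0.837 CPM in iNSLCs and 0 counts in fibroblasts and was 35.0-fold higher in iPSCs than in iNSLCs (edgeR adjusted p = 0.0113). LEFTY2, its feedback inhibitor, had 42.3 and 31.5 CPM in iPSC clones, 0 counts in iNSLCs and 2 counts in fibroblasts, at least 352-fold higher in iPSCs than in iNSLCs (edgeR adjusted p = 0.00422). GDF3 and BMP3 were higher in iPSCs than in fibroblasts as well, by at least 140-fold (edgeR adjusted p = 0.00566) and at least 38.5-fold (edgeR adjusted p = 0.00795). Of 10 other receptors and coreceptors, 5 were higher and 3 lower against fibroblasts, and 2 higher and 2 lower against iNSLCs (median log2 ratios 1.55 and 0.57). TDGF1, the NODAL coreceptor, lay at 8.32 and 7.02 CPM in iPSC clones and 1.12 CPM in iNSLCs (6.87-fold, edgeR adjusted p = 0.0164) with 1 count in fibroblasts, while LRRC32, which tethers latent TGF-β to the cell surface, was 72.6-fold lower in iPSCs than in fibroblasts (edgeR adjusted p = 0.000431). BAMBI, a pseudoreceptor, was 12.3-fold higher than in fibroblasts (edgeR adjusted p = 0.000862).

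Genes known as targets of activin and NODAL were mostly high in iPSCs. Of 10 tested targets, 9 were higher in iPSCs than in fibroblasts, 9 were higher than in iNSLCs and none was lower, with median log2 ratios of 8.05 and 5.22. Of all genes tested, 29.6% were higher than in fibroblasts and 13.2% higher than in iNSLCs. EOMES, a mesendoderm regulator, had 157 and 109 CPM in iPSC clones, 2.48 CPM in iNSLCs and 2 counts in fibroblasts and was 53.6-fold higher in iPSCs than in iNSLCs (edgeR adjusted p = 0.00446), and NANOG, a pluripotency factor, was 223-fold higher than in iNSLCs (edgeR adjusted p = 0.00353). NANOG also belongs to the pluripotency markers and was carried by the vectors, and the 2 lists move with the cell type. NODAL and LEFTY2 are counted both here and among the other ligands. BAMBI and SMAD9 are likewise counted among the BMP targets and in another list. Of 17 genes known as induced by TGF-β, 15 were lower and 1 higher in iPSCs than in fibroblasts, but 7 were higher and 8 lower than in iNSLCs (median log2 ratios -2.87 and -0.51). The 8 included COL1A1, COL1A2 and COL3A1, which are also fibroblast markers and were 50.9-fold, 48.3-fold and 115-fold lower in iPSCs than in iNSLCs, and POSTN, a matrix protein highest in iNSLCs, which was 74.8-fold lower (edgeR adjusted p = 0.00227). The 7 higher ones included CCN2, CCN1, ACTA2, TAGLN, PMEPA1 and TPM1. Of these, ACTA2 and TAGLN are also smooth muscle markers, and PMEPA1 is also counted among the other SMAD regulators. Of 11 BMP targets, 4 were higher and 4 lower than in fibroblasts, and 1 higher and 5 lower than in iNSLCs (median log2 ratios 0.05 and -0.77). ATOH8 and SMAD9 were lower in iPSCs than in fibroblasts, 18.9-fold and 17.8-fold, and DLX5 was 10.5-fold lower than in iNSLCs (edgeR adjusted p = 0.00573).

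Of 20 genes that release or store latent TGF-β, 4 were higher in iPSCs than in fibroblasts and 13 were lower, and 5 higher and 10 lower than in iNSLCs (median log2 ratios -1.13 and -0.44). FBN1, the main microfibril protein, lay at 93.3 and 121 CPM in iPSC clones, 744 CPM in iNSLCs and 6316 CPM in fibroblasts and was 58.9-fold lower in iPSCs than in fibroblasts (edgeR adjusted p = 0.000442). FBN2, its counterpart in development, lay at 102 and 122 CPM in iPSC clones, 114 CPM in iNSLCs and 1.25 CPM in fibroblasts, 89.4-fold higher in iPSCs than in fibroblasts (edgeR adjusted p = 0.000449). HTRA1 and EMILIN1 were 60.9-fold and 37.2-fold lower than in fibroblasts. Of 16 other extracellular antagonists and modulators, 7 were higher and 7 lower against fibroblasts, and 2 higher and 5 lower against iNSLCs (median log2 ratios 1.23 and -0.45). CER1, a NODAL antagonist, differed between the clones, with 33.4 and 9.97 CPM in iPSC clones 1 and 2, 0.140 CPM in iNSLCs and 0 counts in fibroblasts, and was higher in iPSCs than in fibroblasts (edgeR adjusted p = 0.0135). DCN, ASPN and CHRDL1 were lower in iPSCs than in both other cell types, and DCN is also a fibroblast marker. Of 20 other SMAD regulators, 6 were higher and 7 lower against fibroblasts, and 5 higher and 2 lower against iNSLCs (median log2 ratios -0.38 and 0.41). FOXH1, the SMAD2 and SMAD3 partner in NODAL signalling, lay at 58.2 and 49.9 CPM in iPSC clones, 16.9 CPM in iNSLCs and 0.259 CPM in fibroblasts (209-fold higher in iPSCs than in fibroblasts, edgeR adjusted p = 0.000473), whereas RUNX1, SMAD9 and ZEB1 were 18.4-fold, 17.8-fold and 14.0-fold lower than in fibroblasts.

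Markers of other cell types moved with the groups as well. Of 6 smooth muscle and pericyte markers, which include ACTA2 and TAGLN from the TGF-β induced genes, 1 was higher against fibroblasts, 3 were lower, and 5 were higher than in iNSLCs. Their summed levels were 218 and 207 CPM in iPSC clones, 69.6 CPM in iNSLCs and 2736 CPM in fibroblasts. The lowest place in iNSLCs was shared by TGFB1, INHBA and SMAD7, although TGFB1 and INHBA were highest in iPSCs and not in fibroblasts, and the part of such cells in those results was not tested. Of 5 chondrocyte markers, 4 were higher and 1 was lower against fibroblasts and 3 were higher against iNSLCs, with sums of 317 and 453 CPM in iPSC clones, 260 CPM in iNSLCs and 5.90 CPM in fibroblasts. Blood and keratinocyte markers summed to 13.7 and 12.5 CPM and to 10.8 and 6.16 CPM in the iPSC clones, to 19.5 and 72.3 CPM in iNSLCs, and to 21.1 and 7.30 CPM in fibroblasts. Of 5 tested blood markers 1 was higher in iPSCs than in fibroblasts and 1 lower, and 1 was lower than in iNSLCs, and of 4 keratinocyte markers 1 was lower than in fibroblasts and 3 lower than in iNSLCs, where KRT1 reached 41.0 CPM.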

How the data were processed

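RNA sequencing of 4 porcine cultures was analysed from deposited tables of read counts for each gene. The submitters' notes name Trim Galore 0.4.0, STAR 2.5.3a and featureCounts 1.5.2 and the Sscrofa11.1 assembly. Whether counting used the strand was not stated there, and reads of overlapping genes could not be told apart. 11 of the 48 genes share exon bases with another gene. The counts were not normalized before deposit, and totals were 21640374 and 41296933 (iPSC clones), 25784594 (iNSLC) and 62421521 (fibroblast).

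The 48 genes were matched by Ensembl identifier. For the further lists, 14857 genes were named by identifier and 1676 by position, where exactly 1 RefSeq gene of that assembly overlapped by 80% or more. The members and lists were chosen with earlier results of these data known. They came from textbook knowledge and covered other ligands, other receptors, other antagonists, SMAD regulators, latent TGF-β release and storage, TGF-β induced genes, activin and NODAL targets, BMP targets, and markers of fibroblasts, pluripotent, neural stem, endothelial, blood, keratinocyte, smooth muscle and chondrocyte cells. Every family member may be named, and from each list up to 4 called genes with the largest ratio, with others where a count is spelled out. Some genes of the lists are not reported here. Statistics in full go to members with the largest ratios in each role.

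The main test was the two-sided edgeR 4.0.16 quasi-likelihood F test (R 4.3.3, limma 3.58.1) over all 4 libraries in 3 groups after filterByExpr, with TMM scaling and Benjamini-Hochberg adjustment over 15739 genes. The clones left 1 residual degree of freedom (common biological coefficient of variation 0.198). The study's text names no model for the pig libraries. SE is the log2 ratio divided by the root of F. Fold changes are ratios of TMM-scaled CPM, the iPSC value being the mean of the clones, with fewer than 3 counts raised to 3 per library, also in medians. Where the lower library had 1 to 3 counts, members' ratios are of unraised counts. Intervals are 95% exact conditional binomial and cover counting error only. Levels per kilobase use the exon lengths in the deposited table. Alternatives were RLE and total-count scaling, DESeq2 1.42.0, other filters and folds, fewer libraries, and, added after seeing the data, an older quasi-dispersion estimate.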

Additional observations from a re-analysis of the deposited data

How the results depend on the processing

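Total counts in place of TMM moved the comparisons with fibroblasts most: 8 genes instead of 17 lay 4-fold or more apart between the iNSLC and fibroblast libraries, 6 higher in iNSLCs and 2 lower. The log2 ratio of iPSCs to fibroblasts then turned to 0.49 for SMAD4, 0.45 for TGFB2, 0.27 for SKIL, 0.17 for ACVR1, 0.46 for GDF11 and 0.15 for BMPR1B, of which ACVR1 alone had been called lower. Without the low-count filter, 5 instead of 9 genes were lower in iPSCs than in iNSLCs, and ACVRL1, TGFB2, TGFB3 and BMP1 were the genes lost. With genes from 1 CPM included, 3 genes instead of 1 were at least 2-fold apart between the clones. Leaving out a clone left no residual degree of freedom and gave values with no test. Among genes at 10 CPM or more in the higher group, 18 were at least 4-fold apart against fibroblasts, and 16 to 18 without a clone. Against iNSLCs, 8 were, and 8 to 9 without a clone. Shares over all genes were not computed for these 4-fold counts or for the counts of genes under the alternative settings above. Such counts therefore describe the family alone. Without iPSC replicate 1 or 2 in turn, the log2 ratio to fibroblasts ranged from -0.23 to 0.43 for SMAD7, -0.43 to 0.12 for TGFB2 and -0.47 to 0.22 for GDF11, and that to iNSLCs from -0.58 to 0.0084 for BMP5 and -0.090 to 0.20 for BMPR1B. None of these had been called in the comparison concerned. RLE scaling changed no call among the 46 genes. INHBA was not called against fibroblasts without the low-count filter (edgeR adjusted p = 0.0536), and BMP6 not against iNSLCs by DESeq2 (adjusted p = 0.0505). No paired analysis was possible because the fibroblast and iNSLC groups hold 1 library each. With 1 residual degree of freedom small differences may be missed, and weak genes such as BMP6, INHBB and GDF10 were measured less precisely in the shallowest library, iPSC clone 1.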
